A study of Mus musculus with 2 samples.

Results

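A set of 10 transcription factor genes that pull epithelial identity in opposite directions were followed in luminal cells of the mouse mammary gland, in which the miR-200c/141 cluster was either intact or deleted. They were picked by symbol. Zeb1, Zeb2, Snai1 and Snai2 are repressors of epithelial genes that drive epithelial-mesenchymal transition (EMT), here called the repressors. Trp63 is the basal cell factor, and Ovol1, Ovol2, Grhl1, Grhl2 and Grhl3 are the epithelial factors. All 10 were found among the 16906 genes of the deposited table. The 4 repressors were scarce in both libraries, and none of them was higher after the deletion by more than counting error. All 5 epithelial factors had lower values in the knockout library, as did 54.8% of genes with a mean of at least 1 FPKM. For Ovol1 and Ovol2 the difference was within counting error. Grhl3 and Trp63 passed the rule for a lower gene given below.

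Each group was 1 library of about 20000 sorted luminal cells from C57BL/6 mice, 8 weeks old, injected with tamoxifen. The control (Ctrl) had the genotype miR-200c/141-flox/flox, in which the cluster is flanked by recombination sites but stays in place. The knockout (CKO) was K8-CreERT2;miR-200c/141-flox/flox, in which tamoxifen activates a Cre recombinase driven by the keratin 8 promoter, a promoter of luminal cells. The Cre allele was present in CKO alone, so effects of Cre and of the deletion cannot be told apart. The labels place the harvest 4 weeks after tamoxifen in one entry and 3 days in another, and they do not say how many mice were used. With 1 library per group there are no replicates. No difference below has been set against the spread between animals, and the intervals given cover counting error only.

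ZEB and SNAIL proteins bind E-box motifs in the promoters of genes such as Cdh1 and recruit corepressors that silence them. In epithelial cells the miR-200 family holds ZEB1 and ZEB2 down through their 3' UTRs, and ZEB proteins in turn repress the miR-200 genes, a loop that keeps cells in either state. OVOL and grainyhead-like (GRHL) proteins act on the epithelial side: OVOL proteins repress ZEB genes, and GRHL proteins activate junction genes and repress Zeb1. In the mammary gland Snai2 and Trp63 are best known from the basal layer, while the luminal layer relies on the epithelial factors.

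The microRNAs of the family fall into sets that share a seed, bases 2 to 8 of the mature strand, which pairs with the messenger RNA. They are shown because the deleted pair carries one seed of each set and the cluster on chromosome 4 carries both seeds again. Sequences are from RefSeq (GRCm38.p6), 5′ to 3′, with the seed in capitals. The deleted cluster lies on the minus strand of chromosome 6.
mmu-miR-200c-3p, chr6:124718324-124718346: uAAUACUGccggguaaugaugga
mmu-miR-200b-3p, chr4:156055685-156055706: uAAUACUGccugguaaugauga
mmu-miR-429-3p, chr4:156053916-156053937: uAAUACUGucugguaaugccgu
mmu-miR-141-3p, chr6:124717917-124717938: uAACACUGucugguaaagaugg
mmu-miR-200a-3p, chr4:156054911-156054932: uAACACUGucugguaacgaugu
The first 3 share the seed AAUACUG and the last 2 share AACACUG, so miR-200b, miR-429 and miR-200a can pair with the same 7-base matches. The microRNAs themselves were not measured in these libraries, and the deletion could not be checked from them.

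Matches to the 2 seeds were counted in the longest 3' UTR that each factor has (GENCODE M21, GRCm38), as CAGTATT for miR-200c and CAGTGTT for miR-141. The ZEB genes stood apart. Zeb1 held 5 and 4 matches in a 3' UTR of 2401 bases, and Zeb2 held 5 and 4 in 4941 bases. Of 15761 genes in the table with such a UTR, 28.1% held at least 1 match and only 3 genes held at least 9. Trp63 held 3 matches, Snai2 2 and Snai1 1. On the epithelial side Grhl1 and Grhl2 each held 1 match, to miR-141, while Ovol1, Ovol2 and Grhl3 held 0.

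**Figure D1:**
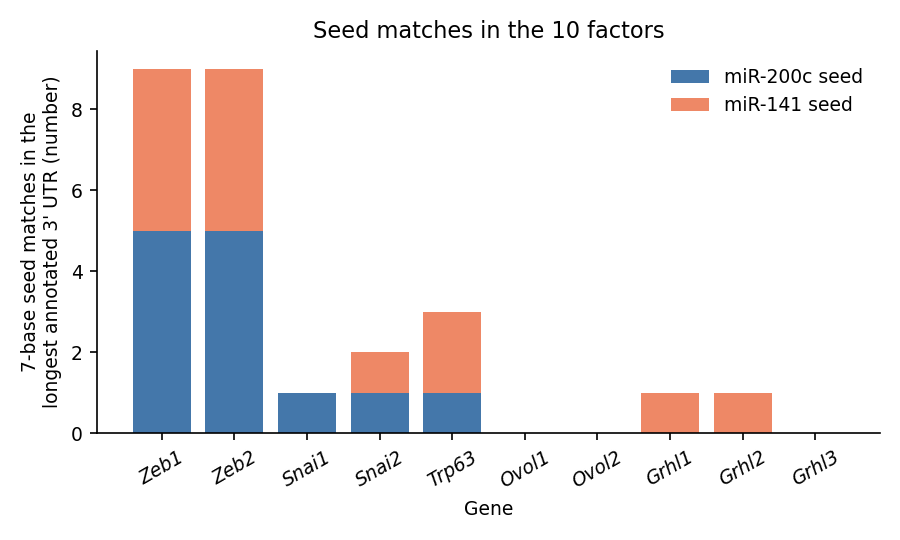
Number of 7-base seed matches per factor (vertical axis, counted in its longest annotated 3' UTR), split by colour into miR-200c and miR-141 matches. Zeb1 and Zeb2 have 9 each, and no other factor has more than 3.

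The sites below show where the deleted microRNAs could pair. In Zeb2 all lie in the last exon (exon 11 of 11), and the 6 shown are those in which an A follows the match, a base that Argonaute recognises. For Snai1, Snai2, Trp63, Grhl1 and Grhl2 1 match each is shown, also in the last exon, and the sites of Zeb1 are not printed. Windows are in the sense of the gene, with the match in capitals.
Zeb2, miR-141, chr2:44988357-44988379, minus strand: tgcaaaaattttgtaCAGTGTTa
Zeb2, miR-200c, chr2:44988108-44988130, minus strand: cgcactacagtgcatCAGTATTa
Zeb2, miR-141, chr2:44987784-44987806, minus strand: cctttgcaccagcttCAGTGTTa
Zeb2, miR-200c, chr2:44987746-44987768, minus strand: ttgaagcacccgtgtCAGTATTa
Zeb2, miR-200c, chr2:44987661-44987683, minus strand: gttcattaattttgtCAGTATTa
Zeb2, miR-200c, chr2:44987527-44987549, minus strand: tcatactgtagtgtaCAGTATTa
Snai1, miR-200c, chr2:167542264-167542286, plus strand: gagcctcctacccctCAGTATTc
Snai2, miR-200c, chr16:14708708-14708730, plus strand: tttcaaccaaaggaaCAGTATTt
Trp63, miR-200c, chr16:25890860-25890882, plus strand: tgggaaagcatgcaaCAGTATTc
Grhl1, miR-141, chr12:24616394-24616416, plus strand: cctccacctctcctcCAGTGTTt
Grhl2, miR-141, chr15:37363173-37363195, plus strand: ttgtcaaaacttcctCAGTGTTt
In the matches of Snai1, Snai2, Trp63, Grhl1 and Grhl2 no A followed. A match is a description of the letters and was not tested as a site.

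Expression is given in FPKM, fragments scaled to transcript length and sequencing depth, so levels can be compared between genes. The depth came to about 12600000 reads for Ctrl and 11500000 for CKO. These totals, and the reads per gene, were worked out from the deposited p-values. Luminal markers were abundant: 11 of them summed to 14131.4 FPKM in Ctrl and 18814.7 in CKO, with 1 higher (Krt18, at 6606.79 and 10398.4) and 0 lower by the rule given below. Basal cell markers were present at lower levels and higher in CKO, the sum of 10 of them being 159.4 FPKM for Ctrl and 294.1 for CKO. Genes of transcripts under 2 kb had a median log2 ratio of 0.08 and those of 4 kb and over one of -0.14, so transcript length moved with the ratios.

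The 10 factors ran from 0.24 to 36.56 FPKM. In Ctrl the order was Grhl1, Ovol1, Grhl2, Ovol2, Grhl3, Trp63, Snai1, Snai2, Zeb1 and Zeb2. The counting intervals of Ovol1 and Grhl2 overlapped, as did those of Snai1 and Snai2 and those of Zeb1 and Zeb2. In CKO the 5 epithelial factors kept this order, and the intervals of neighbours among them did not overlap. Below them came Snai1, Trp63, Snai2, Zeb2 and Zeb1, and from Grhl3 down each interval overlapped the next. Summed over genes, the epithelial factors reached 76.68 FPKM in Ctrl and 61.2 in CKO, against 3.02 and 3.41 for the repressors. Epithelial factor transcripts thus outnumbered repressor transcripts 25.4-fold in Ctrl and 17.9-fold in CKO. The repressor sums rested on 95 and 100 reads, and Grhl1 alone made up 47.7% and 46.3% of the epithelial sums. No counting interval was computed for these folds.

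**Figure D2:**
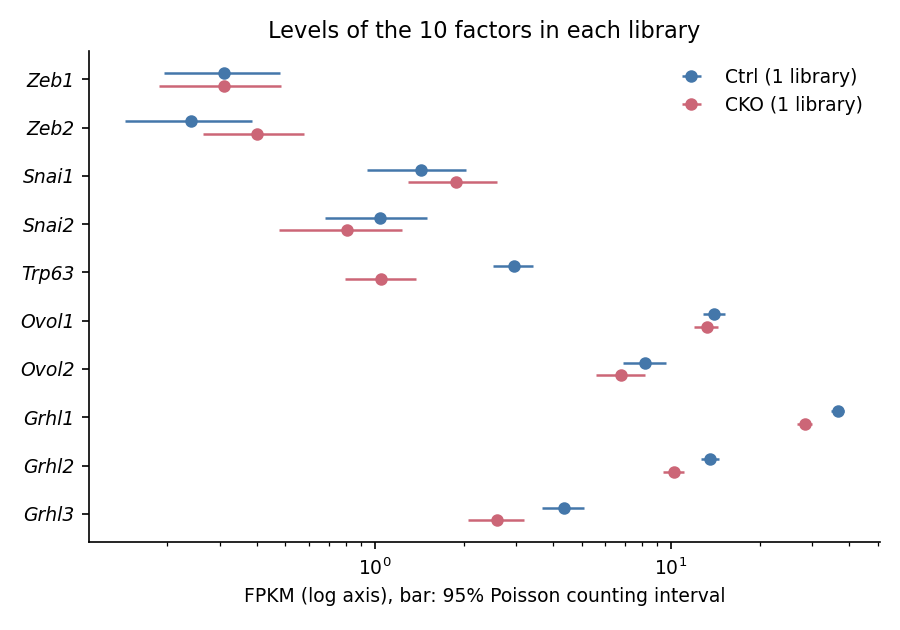
FPKM of each factor (horizontal log axis) in the Ctrl and CKO libraries, with 95% exact Poisson intervals of the estimated reads as bars. The repressors lie between 0.24 and 1.89 FPKM, and the epithelial factors between 2.6 and 36.56.

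Changes are given as log2 ratios of CKO over Ctrl after adding 0.5 FPKM to each value, with a 95% exact conditional binomial interval of the read ratio computed without that addition. A gene was called higher or lower when its mean was at least 1 FPKM, its ratio at least 1.5-fold and its interval without a ratio of 1. Of the 10 factors 7 had a mean of at least 1 FPKM, each with at least 1 FPKM in both libraries. Of these 7, 0 were higher and 2 were lower, Trp63 and Grhl3. Over all 11667 genes with that mean, 2.28% were called higher and 3.03% lower. Among genes of 1 to 5 FPKM, where 3 of the 7 and both of the lower factors lie, 4.05% were called higher and 7.81% lower. Among genes of at least 5 FPKM, where the other 4 lie, the shares were 1.66% and 1.36%. With 1 library a group this rule is no test of the conditions. Gene positions below are in GRCm38.

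Zeb1, the repressor most closely tied to the miR-200 family (Entrez gene 21417), measured 0.31 FPKM in both libraries. Those values rested on 21 and 19 reads, and the interval of the log2 ratio ran from -0.99 to 0.95. The libraries were level, but a change of just under 2-fold either way would not have been detectable at this depth. Zeb2, its paralog (Entrez gene 24136, chr2:44983512-45117442), measured 0.24 FPKM in Ctrl against 0.4 in CKO, from 18 and 27 reads. Its log2 ratio was 0.28 with 0.5 FPKM added and 0.74 without, and the interval of -0.20 to 1.66 included no difference. Both genes stood low among all genes: Zeb1 at percentile 21.2 of the table in Ctrl and 21.7 in CKO, Zeb2 at 19.1 and 23.6.

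Snai1, which encodes the short-lived repressor SNAIL, had the highest level of the 4, although its interval overlapped that of Snai2 in Ctrl. The gene (Entrez gene 20613, chr2:167538195-167542814) measured 1.43 FPKM in Ctrl against 1.89 in CKO, from 29 and 35 reads. The log2 ratio was 0.31 (interval -0.35 to 1.16). Snai2, which encodes SLUG (Entrez gene 20583, chr16:14705852-14709395), went the other way with 1.04 FPKM in Ctrl against 0.81 in CKO, from 27 and 19 reads. Its log2 ratio was -0.23 (interval -1.31 to 0.52). Neither difference was larger than counting error. Snai1 made up 47.4% of the repressor sum in Ctrl and 55.4% in CKO.

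Summed over the 4 genes, the repressors had 95 reads in Ctrl and 100 in CKO, a log2 read ratio of 0.20 (interval -0.22 to 0.62). Their median log2 ratio was 0.14, beside -0.03 over all genes measured. The upper bound of the summed ratio lay a little above 1.5-fold, so a sum 2-fold higher in CKO lay outside the interval, whereas a 2-fold higher Zeb2 lay inside its own.

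ZEB genes are expressed strongly in stromal cells and leukocytes, so markers of those cells are given beside the repressors. The 7 fibroblast markers summed to 40.88 FPKM in Ctrl and 43.42 in CKO, the 6 endothelial markers to 20.87 and 21.07. The 4 pericyte markers summed to 3.92 and 3.68 FPKM, the 10 immune markers to 25.16 and 44.14, and 4 adipocyte markers to 59.29 and 79.42. Of 3 measured adipocyte markers 1 was called lower, Pparg, the adipocyte master regulator, at 1.43 and 0.59 FPKM, and 0 higher. The other 2 had higher values in CKO but under 1.5-fold, Lipe at 24.33 and 34.59 FPKM and Fabp4 at 33.36 and 44.19. Of the immune markers 3 were measured, and all 3 had a log2 ratio above 0, with a median of 0.52. By the rule 1 was higher, Cd74, an antigen presentation gene also made outside leukocytes, and 0 lower. Lyz2 measured 4.42 and 6.57 FPKM, under 1.5-fold but with an interval (0.06 to 1.08) that excluded a ratio of 1. The interval of Csf1r, at 0.89 and 1.12 FPKM, included it. The pan-leukocyte gene Ptprc measured 0.21 and 0.23 FPKM, and 2 immune markers, Cd3e and Nkg7, were listed at the floor in CKO. Of the fibroblast, endothelial and pericyte markers 0 were called either way. The fibroblast gene Pdgfra, named like the other single genes of this paragraph after its value was seen, measured 1.05 FPKM in Ctrl against 0.31 in CKO, with a mean under the minimum. Lum, also under the minimum, measured 1.16 and 0.38 FPKM, and Col1a2 4.24 and 3.22. Dcn, which made up most of the fibroblast sum, went the other way at 25.57 and 30.74. The intervals of these fibroblast genes excluded a ratio of 1, and those of the other fibroblast markers included it. How much of the repressor signal came from such cells was not tested.

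Grhl1, a grainyhead-like activator of desmosomal genes, was the most abundant of the 10 factors. It measured 36.56 FPKM in Ctrl against 28.33 in CKO, from 1605 and 1138 reads (Entrez gene 195733, chr12:24572232-24617391). Its log2 ratio was -0.36 (interval -0.48 to -0.26), lower in CKO by more than counting error but under 1.5-fold. Grhl2, the family member best known for driving Cdh1 and Epcam and for restraining Zeb1, measured 13.56 FPKM in Ctrl against 10.26 in CKO, from 831 and 575 reads (Entrez gene 252973, chr15:37232821-37363569). Its log2 ratio was -0.39 (interval -0.56 to -0.25). Grhl1 and Grhl2 thus had nearly equal ratios at levels that differed more than 2-fold.

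Grhl3, needed for barrier formation and epidermal closure, was the least abundant of the family. It measured 4.35 FPKM in Ctrl against 2.6 in CKO, 1.67-fold lower, from 152 and 83 reads (Entrez gene 230824, chr4:135541887-135573632). Its log2 ratio of -0.65 (interval -1.15 to -0.35) met the rule for a lower gene. With 1 FPKM added in place of 0.5 the ratio of Grhl3 was -0.57 and fell short of 1.5-fold. The intervals of the 3 GRHL genes overlapped, and each of them excluded a ratio of 1.

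Ovol1, a zinc finger repressor active in epithelial differentiation, measured 14.02 FPKM in Ctrl against 13.21 in CKO (Entrez gene 18426, chr19:5549137-5560575). Its 509 and 439 reads gave a log2 ratio of -0.08 (interval -0.27 to 0.10). Ovol2, its paralog, which represses Zeb1 directly, measured 8.19 FPKM in Ctrl against 6.8 in CKO (Entrez gene 107586, chr2:144305175-144332080). With 147 and 112 reads, its log2 ratio was -0.25 (interval -0.63 to 0.10). For both OVOL genes the interval held a ratio of 1.

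Summed over the 5 epithelial factors there were 3244 reads in Ctrl and 2347 in CKO, a log2 read ratio of -0.34 (interval -0.42 to -0.26). The median of the 5 log2 ratios was -0.36, beside -0.03 over all genes measured, of which 54.8% lay below 0. Because transcript length moved with the ratios, each was also taken relative to the median of genes of like length (1 of 10 length classes), an alternative added with the data in view. On that scale the ratios were -0.31 for Grhl1, -0.27 for Grhl2, -0.63 for Grhl3, -0.07 for Ovol1 and -0.32 for Ovol2. All 5 stayed below 0, as they did under every scaling tried. The repressors on the same scale were at 0.12 for Zeb1, 0.40 for Zeb2, 0.27 for Snai1 and -0.25 for Snai2.

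**Figure D3:**
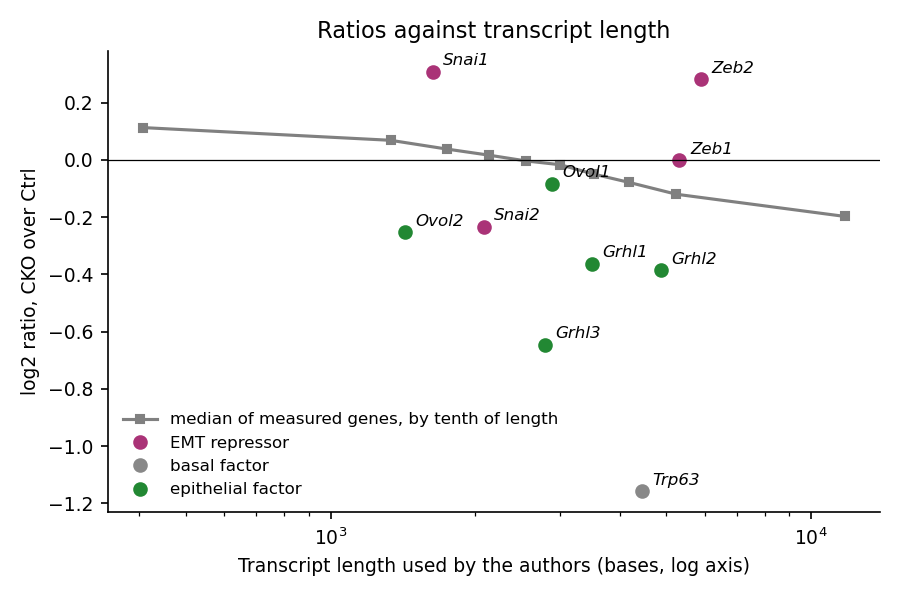
Log2 ratio (0.5 FPKM added) of each factor against the transcript length used by the authors, with the median of all measured genes in each of 10 length classes as a grey line. The line goes from 0.11 for the shortest class to -0.20 for the longest. The 5 epithelial factors, Trp63 and Snai2 lie below it.

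Trp63 encodes p63, a p53 relative that defines the basal layer of stratified and glandular epithelia. The gene (Entrez gene 22061, chr16:25683763-25892088) measured 2.96 FPKM in Ctrl against 1.05 in CKO, 2.82-fold lower in the knockout library. The 165 and 54 reads estimated from FPKM gave an interval of -1.96 to -1.03, and the log2 ratio with 0.5 FPKM added was -1.16. The authors' deposited table gives a false discovery rate of 3.34e-08 for Trp63 and calls it down, the only factor of the 10 with a call, where 0.639% of all genes are called down. That test compared the reads of 1 library with the other, not the conditions. Of 1155 read pairs tried, 1 returned the p-value of Trp63 to within 0.6%. That pair was 147 and 54, a log2 read ratio of -1.32 (interval -1.80 to -0.86), with fewer Ctrl reads than the estimate from FPKM. It corresponds to 2.63 FPKM in Ctrl, beside the deposited 2.96. Whether it is the true pair was not tested. The table does not separate the full-length and N-terminally truncated forms of p63.

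Trp63 was lower while other genes of basal cells were higher in the same library. Of 9 measured basal myoepithelial markers 7 were higher in CKO and 0 lower, with a median log2 ratio of 0.75. The basal keratin gene Krt14 measured 44.49 FPKM in Ctrl against 90.79 in CKO, and its partner Krt5 9.27 against 14.78. The smooth muscle actin gene Acta2, named after its value was seen, measured 33.68 and 66.72 FPKM. Snai2, the repressor also typical of basal cells, was not higher. In bulk RNA, fewer cells of a type and less RNA per cell cannot be told apart, and the part of basal cells in the Trp63 value was not tested.

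**Figure D4:**
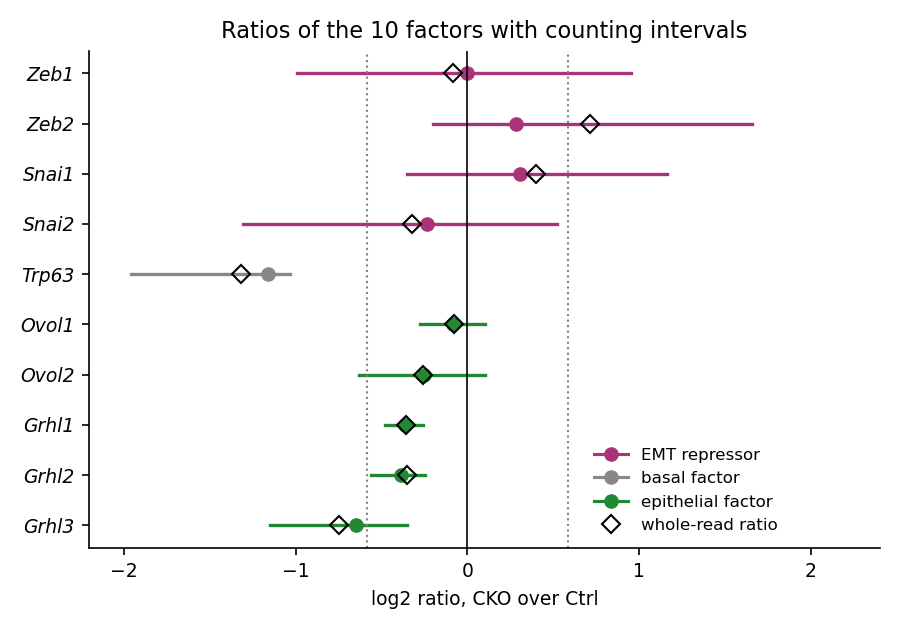
Log2 ratio of CKO over Ctrl for each factor: filled circles, FPKM with 0.5 added; bars, 95% counting intervals of the reads estimated from FPKM; diamonds, ratio of the whole reads that return the deposited p-value; dotted lines, 1.5-fold. Only the intervals of Trp63, Grhl1, Grhl2 and Grhl3 lie wholly below 0, and all 4 repressor intervals cross it.

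For 7 of the 10 factors 1 pair of whole reads near the estimate returned the deposited p-value. The pairs, Ctrl then CKO, were 22 and 19 for Zeb1, 18 and 27 for Zeb2, 29 and 35 for Snai1, and 26 and 19 for Snai2. They were 506 and 438 for Ovol1, 144 and 110 for Ovol2, and 147 and 54 for Trp63. These counts lay within a few reads of the FPKM estimates for each of these 7 factors but Trp63. For the GRHL genes several pairs fitted: 37 for Grhl1, 18 for Grhl2 and 3 for Grhl3. The nearest were 1601 and 1142 for Grhl1, 822 and 590 for Grhl2, and 152 and 83 for Grhl3. For Grhl2 that pair gave a log2 read ratio of -0.35 (interval -0.51 to -0.20). The reads of the GRHL genes were thus not fixed by the p-value. The authors' deposited table lists false discovery rates of 2.53e-09 for Grhl1, 7.53e-05 for Grhl2 and 0.0011 for Grhl3, none with a call. For the OVOL, SNAI and ZEB genes the lowest false discovery rate in the authors' deposited table was 0.266, for Zeb2.

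The wider set of transcription factors tied to EMT held no gene that met the rule. Of 16 listed genes, 9 had a mean of at least 1 FPKM, and 0 of these were called either way, around a median log2 ratio of 0.03. Twist1 measured 0.19 FPKM in Ctrl against 0.21 in CKO, and Prrx1 0.25 against 0.29, both inducers of mesenchymal state as scarce as the ZEB genes. Foxc1, a forkhead factor, measured 16.28 and 21.58 FPKM, Tbx3, a T-box repressor needed for mammary development, 21.91 and 18.04. Sox9, a progenitor factor, measured 100.52 and 108.12 FPKM, and Klf8, a Krüppel-like repressor, 1.37 and 0.95. Of 8 genes of TGF-beta signalling, the chief inducer of ZEB and SNAI genes, all were measured and 0 passed either way, with a median of -0.02. The receptor-activated transducer Smad2 had a log2 ratio of 0.19, its relative Smad3 -0.07 and their partner Smad4 -0.18.

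Other regulators on the epithelial side had mostly lower values in CKO, none past the rule. Of 19 listed, 17 were measured, 13 with a log2 ratio below 0, and the median was -0.15. Ehf, an ETS factor of epithelia, measured 59.58 FPKM in Ctrl against 45.9 in CKO, and its log2 ratio of -0.37 was close to those of Grhl1 and Grhl2. Elf5, the ETS factor of alveolar cells, was at 21.36 and 17.78 FPKM. The epithelial splicing factors Esrp1 and Esrp2 were at 53.98 and 48.92 and at 46.31 and 41.56 FPKM. Tfap2b, an AP-2 factor, was at 20.69 and 17.24 FPKM, while Spdef, an ETS factor of secretory cells, was at 7.72 and 10.42. Corepressors that ZEB and SNAIL proteins recruit were all measured, 10 of 10, with 0 called and a median of -0.15. Rcor1, the scaffold of the CoREST complex, had a log2 ratio of -0.38, Ajuba, a LIM protein that links SNAIL to its effectors, -0.38, the demethylase gene Kdm1a -0.22 and the remodeller gene Smarca4 -0.20. The median of all measured genes in the same length class was -0.20 for Rcor1, -0.05 for Ajuba, -0.02 for Kdm1a and -0.12 for Smarca4. Ratios and calls of listed genes, here and below, were not centred on genes of like length.

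Genes controlled by these factors did not follow a shared course. Of 32 epithelial genes that ZEB and SNAIL proteins repress or GRHL proteins activate, all were measured. Krt18 alone was called, as higher, and the median was 0.01. Cdh1, the E-cadherin gene and the classic target, measured 463.56 FPKM in Ctrl against 433.28 in CKO, and Epcam, a GRHL2 target at 1189.5 and 1232.98 FPKM, had a log2 ratio of 0.05. The desmosome gene Dsp measured 66.52 and 49.51 FPKM (log2 ratio -0.42), and the luminal keratins Krt19 and Krt8 had ratios of 0.28 and 0.21. Of 14 mesenchymal genes, 11 were measured, around a median of -0.05. Of these, 1 was called higher and 2 lower. Cdh2, the N-cadherin gene, measured 0.15 FPKM in Ctrl against 0.27 in CKO, on the level of the ZEB genes. Mmp2, a matrix protease gene, was higher at 4.28 and 6.71 FPKM, and Axl, a receptor kinase gene, was lower at 5.64 and 3.57, as was the protease gene Mmp3, named because it completes the count. Sparc and Vim, a matrix gene and an intermediate filament gene, had log2 ratios of 0.58 and 0.48 without meeting the rule.

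Reported targets of p63 went both ways beside the lower Trp63. Of 21 listed, 19 were measured, of which 3 met the rule as higher and 1 as lower. The median log2 ratio was -0.06. The higher genes were Igfbp3, an IGF binding protein gene that p63 represses, at 3.16 FPKM in Ctrl against 8.15 in CKO, and the keratin genes Krt14 and Krt5 given above. The lower gene was Dst, which encodes the hemidesmosome plakin BPAG1, at 50.26 and 33.23 FPKM. Dst had a log2 ratio of -0.59 at a length of 16488 bases, and the median of its length class was -0.20. Its call was not repeated on the scale of like length. Since Krt14 and Krt5 are also basal markers, the 2 lists are not independent.

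**Figure D5:**
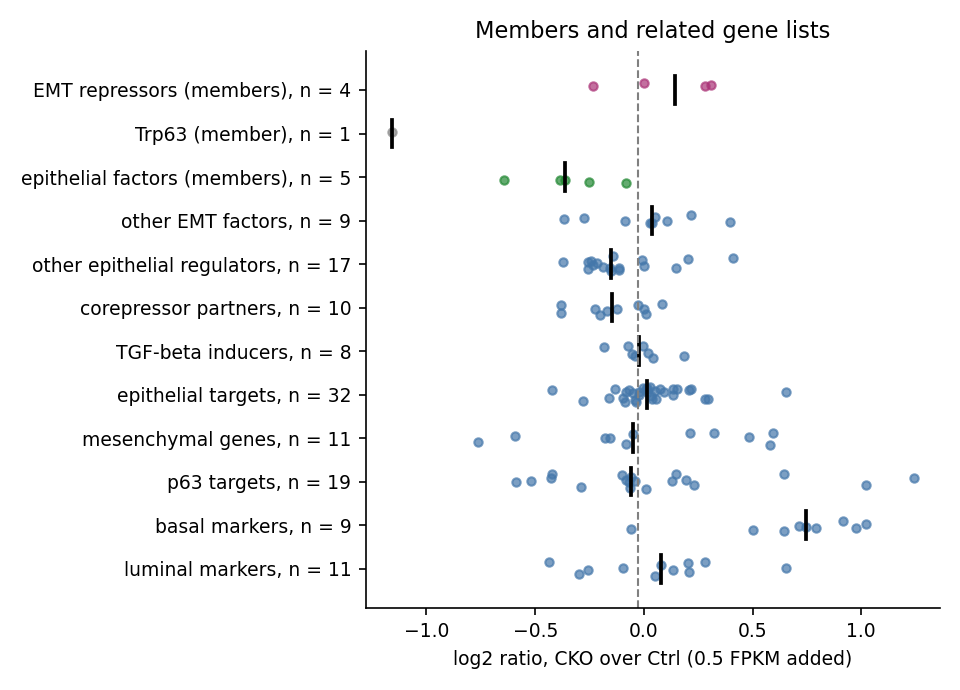
Log2 ratio of CKO over Ctrl (0.5 FPKM added) for all 10 factors and for each related list (there only genes with a mean of at least 1 FPKM), 1 point per gene; black bars mark medians and the dashed line the median of all measured genes, -0.03. The epithelial factors sit left of that line at a median of -0.36, and the basal markers right of it at 0.75.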

How the data were processed

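The data were 1 deposited table of 16906 genes from bulk RNA sequencing of 2 libraries, Ctrl and CKO. The submitters' processing notes name HISAT, Bowtie2, RSEM and mm10, with no versions. The expression columns carry no unit per the file headers. The deposited values were taken as FPKM because their products with length in kilobases sum to 999609 (Ctrl) and 999909 (CKO). A gene without reads is listed at 0.01. The authors' log2 fold changes, p-values and false discovery rates come from a test of 1 library against the other, and the authors' calls required a false discovery rate of at most 0.001 and 2-fold.

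Read totals were derived by matching the authors' p-values to an Audic-Claverie test. The share of CKO in the reads was 0.4779, from genes at the floor in Ctrl, of which 620 of 641 returned whole reads within 0.01. At the chosen total 1360 of 2771 genes returned their p-value from their rounded FPKM within 1.5e-06 (0.6% for p under 0.001). Whole-read pairs were sought within 15% of the estimate. The scripts were tested on simulated data. Python 3.11.15, numpy 2.4.6 and scipy 1.17.1 were used. Intervals have a level of 95%, and PCR duplicates, which are not independent, were not separated from other reads here. Promoters are from RefSeq, 300 bases per start site.

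The members and gene lists were chosen with earlier results of these data known. The named genes were all members, up to 4 genes of each list with the interval bound farthest from a ratio of 1, and 12 set genes such as Cdh1 and Twist1. A gene that this rule names is not reported here. No ranking by likeness was made, since 2 libraries give 1 ratio per gene. Alternatives were other added values, scalings, minimum levels and folds, and whole reads. Adipoq was not analysed here.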

Additional observations from a re-analysis of the deposited data

How the results depend on the processing

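The 10 log2 ratios were recomputed with 0.1 or 1 FPKM added, centred on the median of measured genes (-0.03), scaled with TMM (a shift of -0.03), from whole reads, and, chosen after seeing the data, centred on genes of like length. Of 60 values, 58 stayed within the counting interval. The other 2 were Trp63, at -0.95 with 1 FPKM added and -1.01 from whole reads. Centring on the median and TMM moved each ratio by only 0.03, so those values could hardly leave the interval. Where several whole-read pairs fitted, the pair nearest the FPKM estimate was used. The count of 58 is therefore no measure of robustness. The ratio of Zeb1 ranged from -0.03 to 0.12 and no other factor changed sign. The number of factors called higher was 0 in each setting. The number called lower was 2, Trp63 and Grhl3, except 1 (Trp63) with 1 FPKM added, 1 (Trp63) with a 2-fold rule, and 0 with a minimum mean of 5 FPKM, which both genes lie under. The median of the repressors ranged from 0.09 to 0.20, and that of the epithelial factors from -0.37 to -0.31. Ratios without division by length were not computed separately. With 1 length listed per gene, that length cancels in the ratio of CKO over Ctrl when no value is added. No paired analysis was possible because each group is 1 library. Depth limits the repressors most, at 18 to 35 reads per gene and library.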

Other observations

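Promoter letters were also read for the factors with an entry in the RefSeq table (300 bases per start site, 250 before and 50 after it): Zeb2, Snai1, Ovol2, Grhl1 and Grhl3. The E-box CACCTG, which ZEB and SNAIL proteins bind, was sought on both strands. It was found 2 times at Grhl3, 1 time at Snai1 and 0 times at the start sites of Zeb2, Ovol2 and Grhl1, while 20.2% of 32851 promoters hold it. The GRHL motif AACNGGTT was in none of these windows and in 2.09% of all promoters, and CCGTTA, bound by OVOL proteins, in none of them and in 2.76%. These are descriptions of letters in a window and say nothing about binding.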
